A study of Mus musculus with 14 samples.

Results

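Claudins, cadherins, connexins and their junction partners were described across mouse colorectal tumors of a colitis-associated and a sporadic model. The members are the Affymetrix probe sets, which are groups of short array probes that read 1 transcript, whose single gene symbol belongs to the claudins, the cadherins, the connexins, the zonula occludens scaffolds, occludin or the cingulin family, or to the Jam, Tacstd, Cadm and Ceacam adhesion proteins. Of 22690 probe sets on the array, 113 met this rule, and they stand for 68 genes. They comprised 26 probe sets of 18 claudins, 8 of 5 other tight junction genes, 23 of 16 cadherins, 24 of 16 connexins and 32 of 13 Jam, Tacstd and Ceacam genes. No symbol began with Cadm.

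Colitis-associated cancer (CAC) tumors came from 4 C57BL/6J wild-type mice, 1 tumor array per mouse. These mice had received the carcinogen azoxymethane at 10 mg/kg and then 3 rounds of the colitis-inducing agent dextran sodium sulfate (DSS, 2.5% for 7 days, each round closed by 14 days of recovery). CAC control epithelium was tumor-free distal colon epithelium in 2 pools of 5 mice, and the labels do not say whether these mice had received azoxymethane or DSS. Sporadic tumors came from 5 C57BL/6J-ApcMin/+/J mice, 1 array per mouse, which carry a germline truncating mutation of 1 copy of the tumor suppressor Apc. Sporadic control epithelium was tumor-free distal colon epithelium in 3 pools of 4 mice, labelled with the same strain, so that the Apc mutation is shared by both sporadic groups. All mice were male, and their age is not given in the labels. Tumors were taken whole, while control epithelium had been detached with EDTA (2 mM, 20 min), an incubation the tumors went through too. Block 1 of the experiment holds both CAC groups and block 2 both sporadic groups, so in any comparison across models the model and the block cannot be told apart.

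Epithelial cells are joined near their apical surface by tight junctions, in which claudins form the seal or the ion pores between cells, occludin spans the membrane and the zonula occludens scaffolds tie them to actin. Below them, adherens junctions hold cells together through cadherins whose tails bind catenins. Connexins assemble into gap junction channels that pass small molecules between neighbouring cells. In the colon, sealing claudins limit the loss of salt and water and the entry of luminal contents, while mesenchymal and endothelial cells carry cadherins and connexins of their own.

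Values are intensities that the authors normalized with GCRMA, on a linear scale. Here a member is called measured where at least 1 group mean reached 32, and near the floor where every group mean was under 10. By this measure 49 probe sets of 29 genes were measured, 57 probe sets of 34 genes were near the floor, and the other 5 genes, Cdh5, Cgnl1, Cldn5 and Gja12 among them, lay between. Measured genes numbered 8 of 18 claudins, 4 of 5 other tight junction genes, 4 of 16 cadherins, 5 of 16 connexins and 8 of 13 Jam, Tacstd and Ceacam genes. The near-floor genes included the neural cadherin Cdh2, the placental cadherin Cdh3, Cldn1, Jam2 and Jam3. A low intensity does not show that a transcript is absent.

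Each comparison was tested with limma over all 22626 probe sets that are not array controls, and passed at a Benjamini-Hochberg adjusted p under 0.05. A change is a difference of log2 means, tumor minus control or CAC minus sporadic, ± its standard error (SE). Levels of different genes are not compared, since each probe set has its own response.

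In CAC tumors against CAC control epithelium, 49 of the 113 member probe sets passed (43.4%), against 39.9% of all probe sets. Of these 11 were higher (9.73%, against 14.2% of all) and 38 lower (33.6%, against 25.6%). In sporadic tumors against sporadic control epithelium, 60 passed (53.1%, against 46.0%), 18 of them higher (15.9%, against 17.8%) and 42 lower (37.2%, against 28.2%). Many of the lower calls lay near the floor, where values are small whole numbers that hardly vary. Of the 57 near-floor probe sets, 20 passed as lower in CAC tumors and 19 in sporadic tumors, none as higher, and no change among the 57 exceeded 0.66 on the log2 scale in CAC tumors or 0.53 in sporadic tumors.

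Among the 45 member probe sets with a mean of at least 32 in a group of the CAC comparison, 10 rose (22.2%, against 28.3% of all such probe sets) and 17 fell (37.8%, against 21.2%). The same counts in the sporadic comparison were 15 (33.3%, against 33.2%) and 21 (46.7%, against 27.8%) of 45. Their median change was -0.35 in CAC tumors and -0.43 in sporadic tumors, where the median of all probe sets at this level was 0.11 and 0.08. Counted as genes, with each gene represented by its probe set of largest mean, 5 rose and 9 fell of 26 in CAC tumors, while 8 rose and 11 fell of 26 in sporadic tumors.

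**Figure D1:**
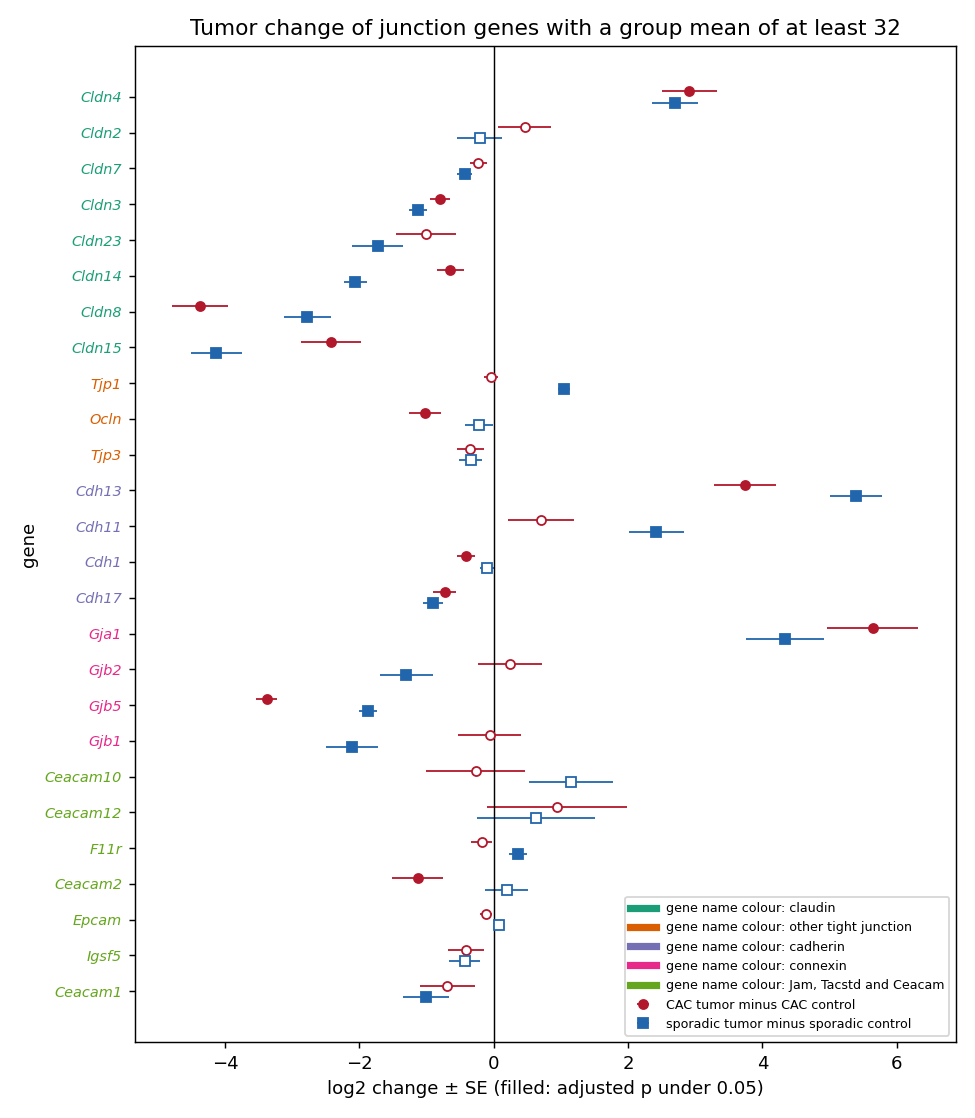
Change of 26 of the 29 measured junction genes in tumors, as log2 tumor minus control ± SE, with CAC as red circles and sporadic as blue squares, filled where the limma adjusted p was under 0.05. Gene names are coloured by junction class. Cldn4, Cdh13 and Gja1 were higher and filled in both models, and Cldn8, Cldn15 and Gjb5 lay below -1.8 in both.

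Among claudins, Cldn4 was the 1 measured gene that rose, in both models, while Cldn3, Cldn8, Cldn15 and Cldn14 fell in both, Cldn14 with CAC means under 32. In CAC tumors 1 rose and 3 fell of 7 claudins with a mean of at least 32 in the groups compared. For sporadic tumors these counts were 1 and 6 of 8. Of the sporadic groups Cldn14 and Cldn15 reached 32 in controls only, so both entered these counts through the group in which they were high. Among all such probe sets 28.3% rose and 21.2% fell in CAC tumors, and 33.2% and 27.8% in sporadic tumors. Cldn4 and Cldn3 moved in opposite directions although they are neighbours in the mouse genome in the RefSeq gene table, and both proteins are receptors of Clostridium perfringens enterotoxin. Because Cldn4 rose while Cldn3 and Cldn15 fell, the 250 bases before the start of each of these genes are shown, from RefSeq on GRCm38.p6. They are written 5′ to 3′ on the gene's strand, with capitals marking matches to 2 searched motifs, the AP-1 motif (TGANTCA) and the GC box (GGGCGG, which reads CCGCCC on the other strand). The Cldn4 window is chr5:134946935-134947184 on the minus strand, the Cldn3 window chr5:134985964-134986213 on the plus strand and the Cldn15 window chr5:136967619-136967868 on the plus strand.
Cldn4: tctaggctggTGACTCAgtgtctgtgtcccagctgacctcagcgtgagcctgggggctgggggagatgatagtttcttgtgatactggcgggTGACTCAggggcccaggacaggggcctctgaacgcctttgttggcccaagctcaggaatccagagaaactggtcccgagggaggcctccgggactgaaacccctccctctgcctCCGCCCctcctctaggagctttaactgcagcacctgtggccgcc
Cldn3: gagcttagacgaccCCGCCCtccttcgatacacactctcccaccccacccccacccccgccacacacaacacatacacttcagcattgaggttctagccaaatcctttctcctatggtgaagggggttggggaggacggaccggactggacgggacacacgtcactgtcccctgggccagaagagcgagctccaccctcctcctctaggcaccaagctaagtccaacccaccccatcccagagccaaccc
Cldn15: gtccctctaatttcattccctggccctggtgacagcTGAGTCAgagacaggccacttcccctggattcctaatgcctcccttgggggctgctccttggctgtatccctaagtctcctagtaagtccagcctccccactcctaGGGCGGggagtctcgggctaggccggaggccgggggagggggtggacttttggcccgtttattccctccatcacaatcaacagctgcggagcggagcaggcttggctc
The Cldn4 window held AP-1 matches at -240 to -234 and at -158 to -152 relative to the start and a GC box at -44 to -39. The Cldn3 window held a GC box at -236 to -231 and no AP-1 match. In the Cldn15 window an AP-1 match stood at -214 to -208 and a GC box at -108 to -103. Both strands were searched, also for the TCF/LEF motif (CTTTGAT or CTTTGAA) and the Grainyhead motif (AACCNGTT), which had no match in the 3 windows. Over all 32851 promoter windows of this length, 6.75% held AP-1, 32.7% a GC box, 7.48% TCF/LEF and 1.79% Grainyhead. Of the 29 measured junction genes 19 had a window in the table, and among these 4 held AP-1 (Cldn4, Cldn15, Gja1 and F11r), 10 a GC box, 1 TCF/LEF (Gjb1) and 0 Grainyhead. A match is a run of letters and no evidence of binding.

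Cldn4 had intensities of 1562, 2247, 2008 and 1464 in the CAC tumors, against 355 and 160 in the CAC control pools. In sporadic tumors the Cldn4 values were 1381, 2292, 1336, 1709 and 3329, against 227, 312 and 347 in the sporadic controls. All 9 tumors lay above all 5 control pools. The change was 2.91 ± 0.41 in CAC tumors (limma adjusted p = 2.31e-04) and 2.70 ± 0.34 in sporadic tumors (adjusted p = 8.82e-05). The difference between the models' changes was 0.21 ± 0.53 (adjusted p = 0.902, 95% interval -0.97 to 1.39).

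Cldn8, a sealing claudin of the distal colon that limits sodium back-leak, had values of 24, 34, 27 and 64 in CAC tumors, against 653 and 782 in CAC controls. In sporadic tumors it had 33, 42, 73, 48 and 82, against 345, 362 and 374 in sporadic controls. Every tumor lay far below every control pool. The changes of -4.37 ± 0.42 in CAC tumors (limma adjusted p = 1.32e-05) and -2.78 ± 0.35 in sporadic tumors (adjusted p = 8.38e-05) differed by -1.60 ± 0.55, which did not pass (adjusted p = 0.122).

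Cldn15, a claudin that forms sodium-permeable pores in the intestine, had 21, 28, 17 and 75 in CAC tumors, against 157 and 157 in CAC controls. Sporadic tumors had 22, 17, 17, 22 and 18, against 351, 323 and 330 in sporadic controls. The tumors again lay below the controls without overlap, with CAC tumor 4 the highest. Cldn15 fell by 2.42 ± 0.45 in CAC tumors (limma adjusted p = 0.00159) and by 4.13 ± 0.38 in sporadic tumors (adjusted p = 7.24e-06). The CAC call missed the threshold (adjusted p = 0.0592) when the spread was estimated from the CAC arrays alone. The changes differed by 1.72 ± 0.59 (adjusted p = 0.123).

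Cldn3, on its probe set of largest mean, had 2990, 3237, 3410 and 3428 in CAC tumors, against 5440 and 5931 in CAC controls. Sporadic tumors had 2632, 2869, 3255, 3883 and 3882, against 6416, 7239 and 7774 in sporadic controls. Cldn3 fell by 0.80 ± 0.15 in CAC tumors (limma adjusted p = 0.00184) and by 1.13 ± 0.13 in sporadic tumors (adjusted p = 4.09e-05), and no tumor reached a control value. All 4 Cldn3 probe sets fell in both models, with changes of -0.88 to -0.72 in CAC tumors and -1.32 to -1.12 in sporadic tumors.

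Cldn14, a claudin of the inner ear and kidney, was the 1 measured claudin whose change differed between the models by test. It had 18, 24, 19 and 18 in CAC tumors, against 35 and 27 in CAC controls, values at or near the level taken here as measured. Sporadic tumors had 16, 15, 14, 16 and 13, against 52, 53 and 84 in sporadic controls. Cldn14 fell by 0.65 ± 0.20 in CAC tumors (limma adjusted p = 0.024) and by 2.06 ± 0.17 in sporadic tumors (adjusted p = 2.88e-06). The difference of the changes was 1.41 ± 0.26 (adjusted p = 0.00611, or 0.0761 with the replicate number as a block). The controls themselves differed, by -1.0 ± 0.21 for CAC minus sporadic (adjusted p = 0.0102), whereas the tumors differed by 0.41 ± 0.15 (adjusted p = 0.109).

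Cldn23 had 65, 159, 120 and 148 in CAC tumors, against 339 and 161 in CAC controls. Sporadic tumors had 132, 198, 196, 225 and 358, against 613, 850 and 652 in sporadic controls. Cldn23 fell by 1.73 ± 0.38 in sporadic tumors (limma adjusted p = 0.00324), and in CAC tumors its change of -1.01 ± 0.45 did not pass (adjusted p = 0.0971). The difference between these changes was 0.72 ± 0.58 (adjusted p = 0.535). In the controls CAC minus sporadic was -1.58 ± 0.47 (adjusted p = 0.0493), a call that ended without CAC control 2 (-1.04, adjusted p = 0.32) or without sporadic control 1 (-1.67, adjusted p = 0.0834), 2 (-1.44, adjusted p = 0.136) or 3 (-1.63, adjusted p = 0.08).

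Cldn7, a claudin found along the lateral membrane that binds Epcam, fell by 0.43 ± 0.11 in sporadic tumors (limma adjusted p = 0.00708), with 4807 to 6252 in sporadic tumors and 7351 to 7883 in sporadic controls. In CAC tumors its change was -0.23 ± 0.13 (adjusted p = 0.179). Cldn2, which forms cation and water pores, passed in no comparison. It had 909 to 1699 in CAC tumors and 662 and 1015 in CAC controls, with a change of 0.46 ± 0.39 (adjusted p = 0.407). Sporadic tumors had 589 to 1578, against 913 to 1195 in sporadic controls, with a change of -0.21 ± 0.33 (adjusted p = 0.678). The 95% intervals of these Cldn2 changes, -0.40 to 1.31 and -0.93 to 0.51, leave room for changes of either sign.

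**Figure D2:**
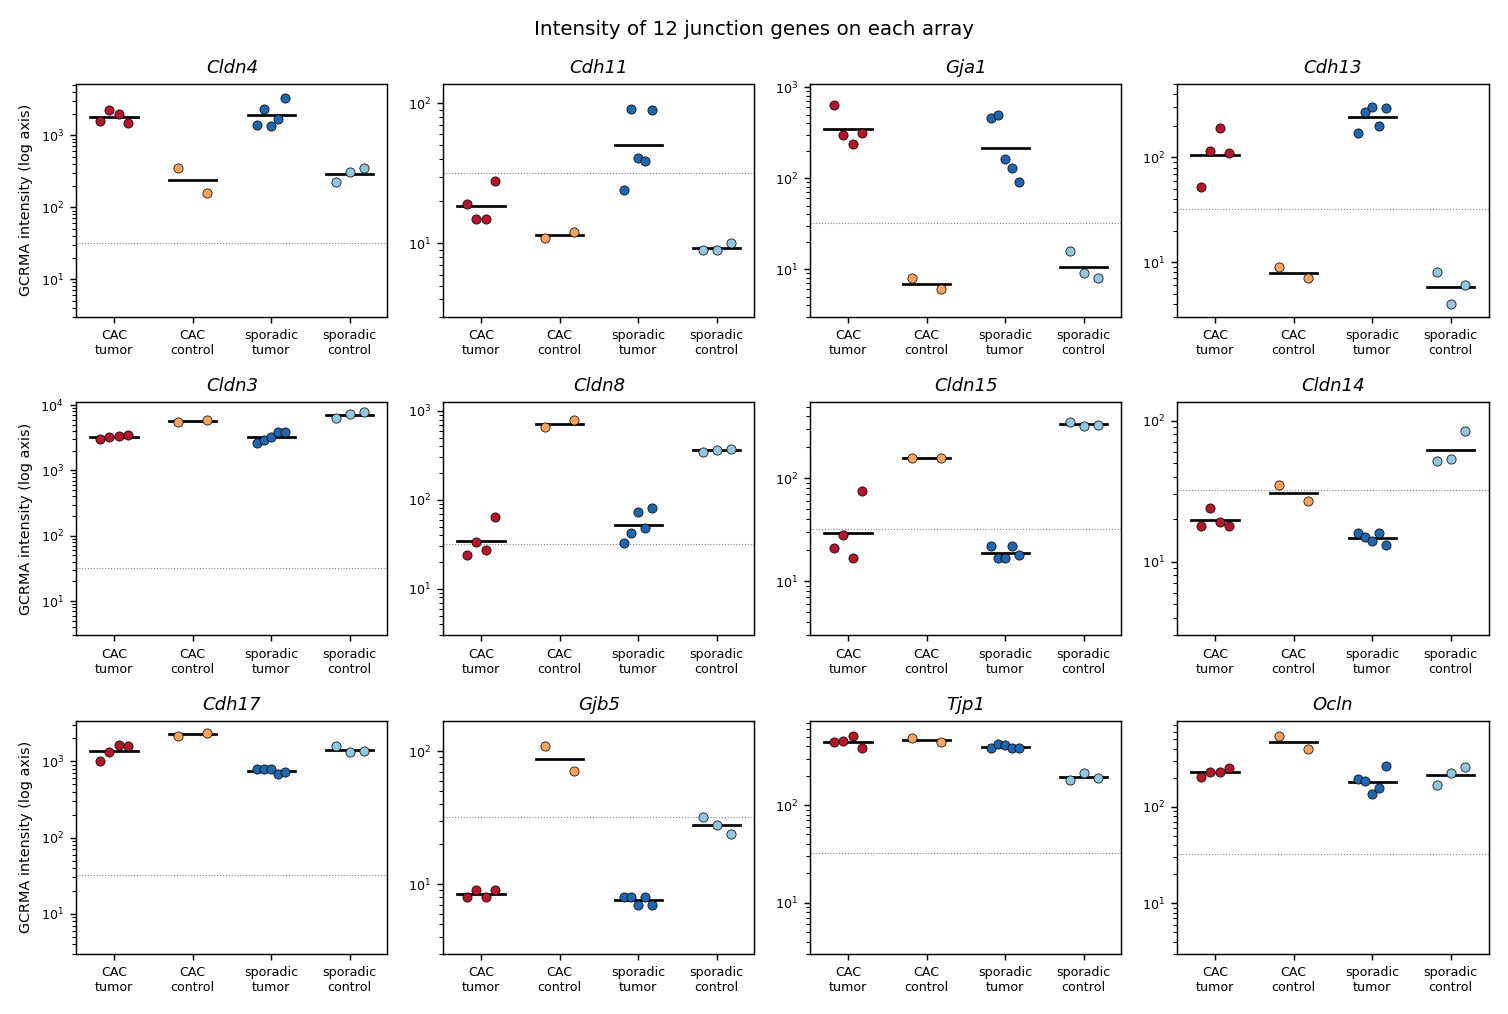
Intensity of 12 junction genes on each array, on a log axis, with 1 point per array, a bar at the geometric mean of each group and a dotted line at 32. Tumors stand apart from their controls without overlap in both models for Cldn4, Cdh11, Gja1, Cdh13, Cldn3, Cldn8, Cldn15, Cldn14, Cdh17 and Gjb5, while for Tjp1 the 3 sporadic control pools stand apart from the other 11 arrays. These genes were picked for display, and the share of all probe sets without overlap was not computed. The CAC change of Cdh11 did not pass (limma adjusted p = 0.301), with every CAC value under 32.

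Among the other tight junction genes, the scaffold Tjp1 rose in sporadic tumors, and occludin fell in CAC tumors. In CAC tumors 1 rose and 1 fell of the 4 measured genes of this class, against 28.3% and 21.2% of all such probe sets. In sporadic tumors 2 rose and 0 fell, against 33.2% and 27.8%. Tjp1 had 447, 456, 515 and 384 in CAC tumors, against 483 and 440 in CAC controls. In sporadic tumors it had 387, 422, 410, 383 and 387, against 179, 214 and 190 in sporadic controls. The sporadic controls were thus the low group, and the tumors of both models overlapped. Tjp1 rose by 1.04 ± 0.09 in sporadic tumors (limma adjusted p = 3.52e-06), and its CAC change was -0.04 ± 0.10 (adjusted p = 0.867, 95% interval -0.27 to 0.19). The changes differed by -1.08 ± 0.14 (adjusted p = 2.73e-04). CAC minus sporadic was 1.25 ± 0.11 in the controls (adjusted p = 1.25e-05) and 0.17 ± 0.08 in the tumors (adjusted p = 0.192).

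Ocln, which encodes the membrane-spanning occludin, had 205, 230, 227 and 253 in CAC tumors, against 538 and 399 in CAC controls. Sporadic tumors had 193, 184, 136, 158 and 261, against 168, 221 and 258 in sporadic controls. Here the CAC controls were the high group, and the sporadic groups overlapped. Ocln fell by 1.02 ± 0.24 in CAC tumors (limma adjusted p = 0.00609), and its sporadic change was -0.22 ± 0.21 (adjusted p = 0.432, 95% interval -0.68 to 0.23). The difference of the changes, -0.80 ± 0.32, did not pass (adjusted p = 0.185). Without CAC control 1 the CAC change was -0.81 (adjusted p = 0.0763), and the control difference of 1.13 ± 0.26 (adjusted p = 0.0153) became 0.91 (adjusted p = 0.113). Tjp3 passed in no comparison, with 603 to 743 in CAC tumors, 784 and 915 in CAC controls, 430 to 700 in sporadic tumors and 607 to 848 in sporadic controls.

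Among cadherins, Cdh13 rose and Cdh17 fell in both models, Cdh11 rose in sporadic tumors and Cdh1 fell in CAC tumors. In CAC tumors 1 rose and 2 fell of 3 measured cadherins, against 28.3% and 21.2% of all such probe sets. In sporadic tumors 2 rose and 1 fell of 4, against 33.2% and 27.8%. Cdh13 reached 32 in tumors only and Cdh11 in sporadic tumors only, so both entered these counts through the group in which they were high. Cdh13, the T-cadherin that is anchored by a lipid and lacks a cytoplasmic tail, had 52, 115, 191 and 111 in CAC tumors, against 9 and 7 in CAC controls. Sporadic tumors had 170, 271, 302, 198 and 299, against 8, 4 and 6 in sporadic controls. Every tumor was above every control, whose values were near the floor, so the fitted changes depend on where the floor lies. Cdh13 rose by 3.74 ± 0.46 in CAC tumors (limma adjusted p = 8.41e-05) and by 5.39 ± 0.39 in sporadic tumors (adjusted p = 9.12e-07). A second measured Cdh13 probe set rose by 2.12 in sporadic tumors (adjusted p = 0.00382), and its CAC change of 1.08 did not pass (adjusted p = 0.157).

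Cdh11, a cadherin of fibroblasts and bone-forming cells, had 19, 15, 15 and 28 in CAC tumors, against 11 and 12 in CAC controls. In sporadic tumors it had 24, 91, 41, 39 and 89, against 9, 9 and 10 in sporadic controls. Cdh11 rose by 2.42 ± 0.41 in sporadic tumors (limma adjusted p = 6.54e-04), and in CAC tumors its change was 0.70 ± 0.49 (adjusted p = 0.301). The difference between these changes, -1.73 ± 0.64, did not pass (adjusted p = 0.153). The endothelial cadherin Cdh5 stayed under 32, with 6 on each CAC tumor array and each control array of both models and 22, 14, 10, 9 and 10 in sporadic tumors. Its sporadic change was 1.03 ± 0.24 (adjusted p = 0.00462).

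Cdh1, which encodes E-cadherin, had 1952, 1973, 1485 and 1640 in CAC tumors, against 2585 and 2081 in CAC controls. Sporadic tumors had 1308, 1358, 1341, 1289 and 1431, against 1615, 1412 and 1301 in sporadic controls. Cdh1 fell by 0.41 ± 0.13 in CAC tumors (limma adjusted p = 0.0269), and its sporadic change was -0.10 ± 0.11 (adjusted p = 0.537, 95% interval -0.34 to 0.14). These changes differed by -0.31 ± 0.17 (adjusted p = 0.304). Cdh17, the liver-intestine cadherin of the enterocyte's lateral membrane, had 999, 1325, 1620 and 1598 in CAC tumors, against 2142 and 2375 in CAC controls. Sporadic tumors had 792, 799, 797, 675 and 716, against 1586, 1305 and 1383 in sporadic controls. Cdh17 fell without overlap in both models, by 0.73 ± 0.17 in CAC tumors (adjusted p = 0.00593) and by 0.91 ± 0.15 in sporadic tumors (adjusted p = 4.27e-04).

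Among connexins, Gja1 was higher and the beta connexin Gjb5 was lower in tumors of both models, Gjb5 with sporadic means under 32. Of 4 connexins with a mean of at least 32 in the groups compared, 1 rose and 2 fell in CAC tumors. In sporadic tumors 1 rose and 3 fell of 4, Gjb5 not among them. The shares of all such probe sets were 28.3% and 21.2%, and 33.2% and 27.8%. Gja1 reached 32 in tumors only, Gjb5 in CAC controls only and Gjb2 in sporadic controls only. Each of them entered these counts through the group in which it was high. Gja1, the most widely expressed connexin, which fibroblasts and smooth muscle also carry, had 642, 297, 239 and 314 in CAC tumors, against 8 and 6 in CAC controls. Sporadic tumors had 458, 489, 162, 131 and 92, against 16, 9 and 8 in sporadic controls. The lowest tumor stood well above the highest control, and CAC tumor 1 was the highest array. The controls were low, so the fitted changes and their difference depend on where the floor lies. Gja1 rose by 5.64 ± 0.68 in CAC tumors (limma adjusted p = 7.99e-05) and by 4.34 ± 0.58 in sporadic tumors (adjusted p = 1.18e-04), and these changes differed by 1.30 ± 0.89 (adjusted p = 0.449). All 5 measured Gja1 probe sets rose in both models, by 3.06 to 5.64 in CAC tumors and by 1.67 to 4.34 in sporadic tumors.

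Gjb5 had 8, 9, 8 and 9 in CAC tumors, against 110 and 71 in CAC controls. In sporadic tumors it had 8, 8, 7, 8 and 7, against 32, 28 and 24 in sporadic controls. The tumors of both models were near the floor and the controls were not. Gjb5 fell by 3.38 ± 0.16 in CAC tumors (limma adjusted p = 1.85e-08) and by 1.87 ± 0.13 in sporadic tumors (adjusted p = 9.67e-07). These changes differed by -1.51 ± 0.21 (adjusted p = 6.61e-04), and the controls differed by 1.67 ± 0.17 (adjusted p = 4.96e-05, or 0.0589 with the spread taken from the controls alone).

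Gjb1, a connexin best known from liver and nerve sheaths, had 19, 43, 52 and 59 in CAC tumors, against 59 and 29 in CAC controls. Sporadic tumors had 55, 30, 36, 24 and 31, against 181, 129 and 133 in sporadic controls. Gjb1 fell by 2.11 ± 0.39 in sporadic tumors (limma adjusted p = 0.00128), and its CAC change was -0.06 ± 0.47 (adjusted p = 1, 95% interval -1.09 to 0.98). The difference of the changes, 2.05 ± 0.61, did not pass (adjusted p = 0.0757). Its controls differed by -1.82 ± 0.49 for CAC minus sporadic (adjusted p = 0.0335), a call lost without CAC control 2 (-1.31, adjusted p = 0.227) and without sporadic control 1 (-1.66, adjusted p = 0.0912), 2 (-1.91, adjusted p = 0.0671) or 3 (-1.89, adjusted p = 0.0564). Gjb2, a connexin of the inner ear and of gut epithelium, had 53, 14, 14 and 14 in CAC tumors, against 17 and 16 in CAC controls. Among sporadic tumors the values were 15, 11, 13, 14 and 12, against 33, 41 and 24 in sporadic controls. Gjb2 fell by 1.30 ± 0.40 in sporadic tumors (adjusted p = 0.021), a call lost without sporadic control 1 (-1.28, adjusted p = 0.0638) or 2 (-1.12, adjusted p = 0.0818) and with the replicate number as a block (-1.21, adjusted p = 0.066).

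Among the Jam, Tacstd and Ceacam genes, Ceacam1 fell in sporadic tumors. In CAC tumors 1 rose and 1 fell of 8 such measured genes, against 28.3% and 21.2% of all probe sets at this level. A gene that reached 32 in tumors only or in controls only entered these counts through the group in which it was high. Ceacam2, the 1 that fell in CAC tumors, entered through the CAC controls in this manner. In sporadic tumors 2 rose and 1 fell of 6, against 33.2% and 27.8%. Epcam, listed as Tacstd1 and a marker of epithelium, had 9602 to 12105 in CAC tumors and 11517 and 12291 in CAC controls, a change of -0.12 ± 0.09 (limma adjusted p = 0.356, 95% interval -0.31 to 0.08). In sporadic tumors it had 7968 to 9368, against 7512 to 8431 in sporadic controls, a change of 0.08 ± 0.08 (adjusted p = 0.452, 95% interval -0.09 to 0.25).

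Ceacam1, an immunoglobulin-type adhesion protein of gut epithelium, had 3066, 3082, 3464 and 4896 in CAC tumors on its probe set of largest mean, against 5507 and 5942 in CAC controls. Sporadic tumors had 698, 1328, 2586, 1468 and 996, against 2573, 2379 and 2849 in sporadic controls. On this probe set Ceacam1 fell by 1.01 ± 0.34 in sporadic tumors (limma adjusted p = 0.0317), and the CAC change of -0.69 ± 0.41 did not pass (adjusted p = 0.214). The sporadic call on it was lost without sporadic tumor 2 (-1.02, adjusted p = 0.0508) or 5 (-0.92, adjusted p = 0.0651) and without sporadic control 1 (-1.02, adjusted p = 0.0752), 2 (-1.08, adjusted p = 0.0613) or 3 (-0.95, adjusted p = 0.099). Over all 7 measured Ceacam1 probe sets, 5 fell in CAC tumors and 7 in sporadic tumors, with changes of -1.39 to -0.69 and of -2.10 to -1.01. CAC tumors were above sporadic tumors on all 7, by 0.92 to 1.84. CAC controls were also above sporadic controls on all 7, by 0.67 to 1.14, and 2 of these differences passed. The difference between the models' changes, of 0.21 to 0.70, passed on 0 of the 7. Probes of Ceacam1 can also bind transcripts of its near-identical copy Ceacam2, so their shares are uncertain.

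**Figure D3:**
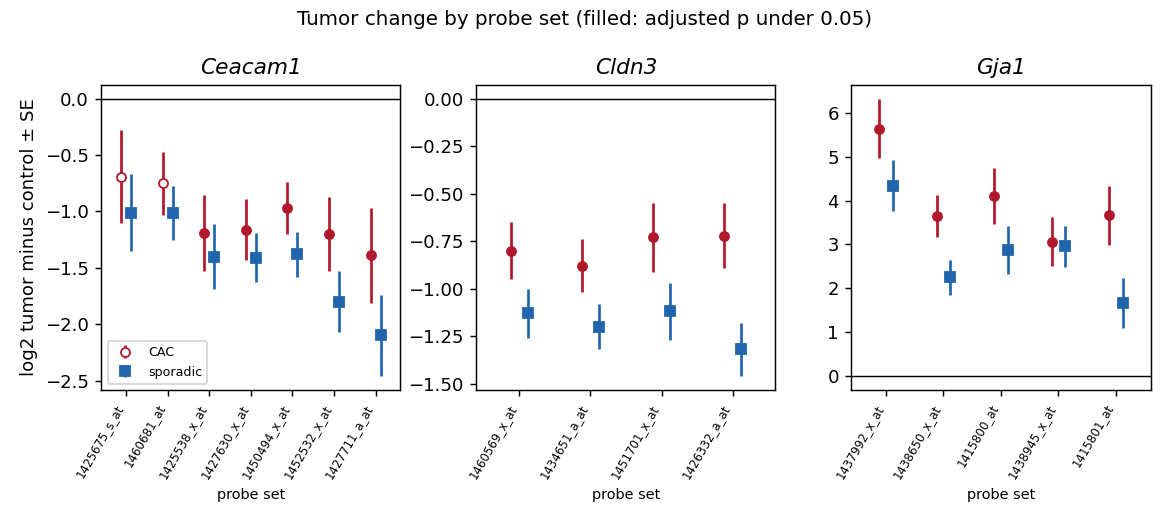
Tumor change of every measured probe set of Ceacam1, Cldn3 and Gja1, as log2 tumor minus control ± SE, with CAC as red circles and sporadic as blue squares, filled where the limma adjusted p was under 0.05. All probe sets of Cldn3 fell and all of Gja1 rose in both models.

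Ceacam2 had 13, 11, 18 and 17 in CAC tumors, against 28 and 36 in CAC controls, and fell by 1.13 ± 0.38 (limma adjusted p = 0.0363). This call was lost without CAC tumor 1 (-1.08, adjusted p = 0.0696) or 2 (-1.0, adjusted p = 0.0806) and without CAC control 1 (-1.32, adjusted p = 0.0787) or 2 (-0.95, adjusted p = 0.207). F11r, the junctional adhesion molecule of epithelium and platelets, rose by 0.36 ± 0.13 in sporadic tumors (adjusted p = 0.0457), with 780 to 1136 in sporadic tumors and 682 to 785 in sporadic controls. In CAC tumors its change was -0.18 ± 0.16 (adjusted p = 0.42). Ceacam10, Ceacam12 and Igsf5, listed as Jam4, passed in no comparison on their measured probe sets. Ceacam12 counts as measured through CAC tumor 3 alone, where it had 123. Ceacam10 varied widely among tumors, with 293, 1252, 893 and 544 in CAC tumors and 582 and 1052 in CAC controls, and with 412, 1498, 2288, 1430 and 2858 in sporadic tumors and 569, 793 and 581 in sporadic controls. Igsf5 had 178 to 322 in CAC tumors and 302 and 379 in CAC controls, and 152 to 271 in sporadic tumors and 271 to 309 in sporadic controls.

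Summed markers of fibroblasts, smooth muscle, endothelium and myeloid cells were also higher in tumors than in controls. Of all probe sets tested, 14.2% rose and 25.6% fell in CAC tumors, and 17.8% and 28.2% in sporadic tumors. Of 8 fibroblast markers 7 rose in both models and 0 fell, and their summed intensity was 5167 to 11138 in CAC tumors, against 134 to 254 in CAC controls, and 8040 to 14506 in sporadic tumors, against 54 to 74 in sporadic controls. The intermediate filament Vim rose by 7.03 ± 0.33 in CAC tumors (limma adjusted p = 1.66e-08) and by 9.15 ± 0.28 in sporadic tumors (adjusted p = 2.32e-10), while Lum stayed near the floor. Of 5 smooth muscle markers 2 rose in CAC tumors and 1 in sporadic tumors, led by Acta2 at 5.53 ± 0.55 and 4.48 ± 0.46 (adjusted p = 1.87e-05 and 1.88e-05). Their sum was 507 to 1461 in CAC tumors, against 52 to 57 in CAC controls, and 271 to 1123 in sporadic tumors, against 50 to 51 in sporadic controls, with Des near the floor in all groups. Of 8 endothelial markers 3 rose in CAC tumors and 4 in sporadic tumors, with sums of 288 to 627 against 104 to 134 and of 239 to 591 against 65 to 95, and with Kdr and Tek near the floor. Of 8 myeloid markers 6 rose in CAC tumors and 7 in sporadic tumors, with sums of 3961 to 15348 against 302 to 396 and of 2951 to 7342 against 335 to 402. The part of these cells in the changes of Gja1, Cdh13, Cdh11 and Cdh5 was not tested. In bulk tissue, more cells of a type and more RNA per cell cannot be told apart.

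The summed epithelial markers were high in every group and lower in tumors, while Cdx2 had geometric means of 13.5 in CAC tumors, 44.3 in CAC controls, 8.96 in sporadic tumors and 11.3 in sporadic controls. Of 8, 5 fell and 1 rose in each model, and their sum was 44227 to 55157 in CAC tumors, against 61316 to 62783 in CAC controls, and 36161 to 43308 in sporadic tumors, against 49893 to 51982 in sporadic controls. The keratin Krt18 was the 1 that rose, by 1.00 ± 0.16 in CAC tumors (limma adjusted p = 7.11e-04) and by 0.98 ± 0.14 in sporadic tumors (adjusted p = 1.73e-04). The caudal homeobox gene Cdx1 fell, with changes of -2.14 ± 0.46 in CAC tumors (limma adjusted p = 0.00375) and -3.40 ± 0.39 in sporadic tumors (adjusted p = 4.02e-05). So did the microvillus protein gene Vil1, with -1.07 ± 0.24 and -1.16 ± 0.20 (adjusted p = 0.00446 and 8.60e-04). The part of a smaller epithelial share in the falls of Cldn3, Cldn8, Cldn15, Cdh17 and Gjb5 was not tested, and Epcam did not pass in either model. Of 7 lymphocyte and plasma cell markers 2 rose in each model, 3 fell in CAC tumors and 1 fell in sporadic tumors, and sums were 432 to 2449 in CAC tumors against 70 to 98 in CAC controls and 110 to 365 in sporadic tumors against 51 to 57 in sporadic controls. The falls were those of Cd3e, Cd79a and Ms4a1 in CAC tumors and of Ms4a1 in sporadic tumors. All were at low levels, with geometric means of 15 or lower in every group. Of 6 enteric neuron and glia markers 0 rose, 3 fell in CAC tumors and 2 fell in sporadic tumors, at low levels throughout, with sums of 43 to 45 in CAC tumors against 54 to 65 in CAC controls and of 38 to 42 in sporadic tumors against 45 to 49 in sporadic controls.

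**Figure D4:**
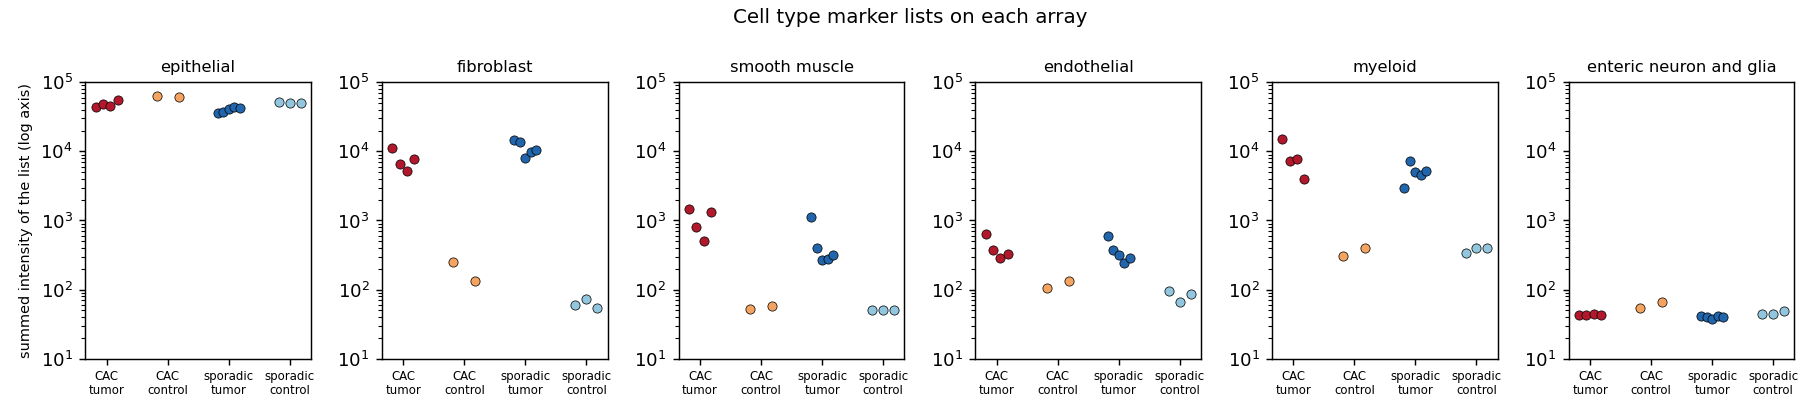
Summed intensity of 6 cell type marker lists on each array, on a log axis, with 1 point per array. Fibroblast, smooth muscle, endothelial and myeloid sums are higher in every tumor than in every control pool of its model, epithelial sums are lower in tumors, and neuron and glia sums stay between 38 and 65.

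Other junction genes were measured from lists of their own, which also hold the members Epcam and Cgnl1. Their counts, and those of the transcription factors below, stand beside the shares of all probe sets tested. These were 14.2% higher and 25.6% lower in CAC tumors, and 17.8% and 28.2% in sporadic tumors. Of 12 adherens junction and nectin genes on the array, 1 rose and 2 fell in CAC tumors, and 5 rose and 2 fell in sporadic tumors. In each model 1 of the falls was that of Nectin1, listed as Pvrl1, which was near the floor in every group. Ctnnb1, which encodes the beta-catenin that links cadherins to actin and carries Wnt signals, rose by 0.94 ± 0.07 in CAC tumors (limma adjusted p = 1.46e-06) and by 1.60 ± 0.06 in sporadic tumors (adjusted p = 1.71e-09). Its geometric means were 7777 in CAC tumors and 4049 in CAC controls, and 7917 in sporadic tumors and 2608 in sporadic controls. Nectin3, an adhesion receptor listed as Pvrl3, fell by 1.00 ± 0.22 in CAC tumors (adjusted p = 0.00375) and by 2.12 ± 0.18 in sporadic tumors (adjusted p = 4.23e-06). Vcl, which encodes the actin-binding vinculin, rose by 1.19 ± 0.19 in sporadic tumors (adjusted p = 3.64e-04), and its CAC change was 0.54 ± 0.22 (adjusted p = 0.0741).

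Of 18 genes of the tight junction plaque and cell polarity, 2 rose and 4 fell in CAC tumors, and 3 rose and 5 fell in sporadic tumors. Ildr1, a protein of the corners where 3 cells meet, fell, with changes of -2.28 ± 0.30 in CAC tumors (limma adjusted p = 1.59e-04) and -2.45 ± 0.26 in sporadic tumors (adjusted p = 2.06e-05). Arhgef2, a guanine nucleotide exchange factor that tight junctions can hold inactive, rose by 1.33 ± 0.41 and 2.03 ± 0.35 (adjusted p = 0.0236 and 6.61e-04). Magi3, a scaffold, fell by 1.61 ± 0.19 in CAC tumors (adjusted p = 6.35e-05) and by 0.74 ± 0.16 in sporadic tumors (adjusted p = 0.00309). Marveld3, a membrane protein related to occludin, fell by 0.97 ± 0.31 in CAC tumors (adjusted p = 0.0285) and by 1.53 ± 0.26 in sporadic tumors (adjusted p = 6.99e-04).

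Of 7 transcription factors known to repress E-cadherin, 3 rose in CAC tumors and 2 in sporadic tumors, and 0 fell. Tcf3, the E2A gene listed as Tcfe2a, rose by 3.05 ± 0.34 in CAC tumors (limma adjusted p = 4.93e-05) and by 2.33 ± 0.29 in sporadic tumors (adjusted p = 7.43e-05). Zeb1, listed as Zfhx1a, rose by 1.56 ± 0.54 and 1.27 ± 0.45 (adjusted p = 0.0385 and 0.039) to geometric means of 17.7 in CAC tumors and 13.7 in sporadic tumors, both low. Snai1, Twist1 and Twist2 were near the floor in every group. Fibroblasts also express Zeb1, and the part of the fibroblast signal in its change was not tested.

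Compared directly, tumors of the models differed on 23 of the 113 member probe sets (20.4%, against 15.5% of all), 17 of them higher in CAC (15.0%, against 7.88%) and 6 lower (5.31%, against 7.58%). Of the 17 higher calls, 7 were probe sets of the single gene Ceacam1 and 5 lay near the floor. Among 25 genes with a mean of at least 32 in either tumor group, Ceacam1, Cdh17, Cdh1 and Epcam were higher in CAC tumors, and Cdh13, Cdh11 and F11r were lower, where 7.76% and 14.8% of all probe sets at this level passed as higher and lower. Ceacam1 differed by 1.47 ± 0.31 (limma adjusted p = 0.01), Cdh17 by 0.85 (adjusted p = 0.00167), Cdh1 by 0.38 (adjusted p = 0.0261) and Epcam by 0.38 (adjusted p = 0.00403). Cdh17, Cdh1 and Epcam also differed in the same direction between the controls, by 0.67 (adjusted p = 0.0343), 0.69 (adjusted p = 0.00666) and 0.58 (adjusted p = 0.00216). The control difference of Ceacam1 had this direction too, at 1.14 ± 0.43, but did not pass on this probe set (limma adjusted p = 0.105). Its changes in the models differed by 0.33 ± 0.53 (adjusted p = 0.793). Cdh13 differed by -1.19 ± 0.35 (adjusted p = 0.0455), and Cdh11 by -1.43 ± 0.38 (adjusted p = 0.0275). The Cdh13 call did not hold without any 1 of 7 arrays (changes of -1.26 to -0.84), and the Cdh11 call did not hold without CAC tumor 1, 2 or 3 or sporadic tumor 2 or 5 (changes of -1.44 to -1.21).

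Between the control groups 18 member probe sets differed (15.9%, against 14.0% of all), 14 higher in CAC (12.4%, against 7.61%) and 4 lower (3.54%, against 6.40%). Of the 14 higher calls, 5 lay near the floor. Of 24 genes with a mean of at least 32, Tjp1, Ocln, Gjb5, Cdh1, Cdh17 and Epcam were among those higher in CAC control epithelium and Cldn14, Cldn23 and Gjb1 were lower, where 5.03% and 13.3% of all probe sets at this level passed as higher and lower. The change in tumors differed between the models on 10 member probe sets (8.85%, against 7.69% of all), 3 with the higher value in CAC (2.65%, against 3.50%) and 7 with the lower (6.19%, against 4.20%). Of these 10 calls 6 lay near the floor, and the others included Cldn14, higher, and Gjb5 and Tjp1, lower, where 3.85% and 2.65% of all measured probe sets passed in these directions. For these 3 genes the controls differed by test, and for none of them did the tumors on the probe set of largest mean (limma adjusted p of 0.109 for Cldn14, 0.468 for Gjb5 and 0.192 for Tjp1). Gjb5 had only 7 to 9 on the tumor arrays of both models and Cldn14 only 13 to 24. For Gjb5 a difference between the tumors could therefore hardly show, and its difference of changes depends on where the floor lies.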

How the data were processed

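Biotin-labelled cRNA of the 14 samples was hybridized to 1-colour Affymetrix arrays, per the labels. The authors made the deposited intensities with GCRMA, per the submitters' processing notes, and its version is not given in the sources used here. Intensities in the table are whole numbers from 2 to 31599, and the series' value table gave the same numbers. Raw array files were not used here. The authors' deposited table also gives a fold change and a corrected p-value for tumor against control in each model, per the file headers. Array medians lay between 15 and 18, and 9342 to 9993 probe sets per array reached 32. The number of arrays limits the precision.

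Without 64 array controls, 22626 probe sets were tested on log2 intensities with no offset and no filter. A model of 4 group means on all arrays was fitted with limma (lmFit, then eBayes), version 3.58.1, under R 4.3.3, which left 10 residual degrees of freedom and gave 0.543 as prior. Adjusted p values follow Benjamini and Hochberg over all 22626. The script was tested on simulated data. Of the member symbols 63 were current in the mouse RefSeq gene table and 5 were updated, and 5 probe sets that meet the rule with several symbols were left out. Promoters came from RefSeq on GRCm38.p6. The files name no genome build.

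The members and gene lists were chosen with earlier results of these data known. Genes were named where they passed with a log2 change of at least 1 and a group mean of at least 32, or were measured and passed nowhere. Array values are printed for up to 5 genes per class with the largest change, and up to 3 passing genes per list are named. Results on some members, though counted, are not reported here. Chosen after their values were seen were Cldn7, Cdh1, Cdh17, Cdh5, F11r, Epcam, Cdx2, Krt18, Ctnna1 and the named near-floor genes, and the array values of Cldn3, Tjp1, Ocln, Ceacam10, Cdh1, Cdh17 and Cdh5. Alternatives were another threshold, a 2-fold minimum, a floor, an offset of 16, quantile normalization, a trended robust prior, only the groups compared, a replicate block, the series' value table, exclusion of less specific probe sets, genes in place of probe sets, the mean of a gene's probe sets, the authors' fold change (added after seeing the data) and each array left out.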

Additional observations from a re-analysis of the deposited data

Results flagged for a closer look

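The change in tumors differed between the models by the limma test of the difference for 3 of the measured junction genes described here. CAC change minus sporadic change was 1.41 for Cldn14 (adjusted p = 0.00611), -1.51 for Gjb5 (adjusted p = 6.61e-04) and -1.08 for Tjp1 (adjusted p = 2.73e-04). Tumor values of both models were at the floor for Gjb5 and low for Cldn14, and the Gjb5 difference depends on where the floor lies. Of the other genes with a group mean of at least 32 in the pathway and marker lists, 4 also passed. The difference was -0.65 for the catenin Ctnna1 (adjusted p = 0.0314), -0.66 for Ctnnb1 (adjusted p = 6.56e-04), 1.13 for Nectin3 (adjusted p = 0.0358) and -2.12 for Vim (adjusted p = 0.011), whose controls were low. Model and experimental block cannot be told apart in these differences.

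One array stood far from the others of its group for 2 genes. Gjb2 had an intensity of 53 in CAC tumor 1, where the other 3 CAC tumors each had 14. Ceacam12 had 123 in CAC tumor 3, where the other 3 CAC tumors each had 7. That array alone brought Ceacam12 to the level taken as measured, so it was looked at only because of the outlying value. Among 48 sets of a gene in a tumor group that were looked at in this manner, these were the 2 that stood out, and chance singles out about 1 in 20.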

How the results depend on the processing

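Counts of member probe sets past the test moved with the rule for a call. In CAC tumors against CAC controls the count of 49 became 18 with a 2-fold minimum, 32 without less specific probe sets, 25 as genes and 28 with only measured probe sets tested. In sporadic tumors against sporadic controls 60 became 36, 38, 31 and 38 under the same rules. Between the tumors 23 became 14 at an adjusted p of 0.01, 11 with a 2-fold minimum, 12 without less specific probe sets, 10 as genes and 15 with only the groups compared. Between the controls 18 became 9 at 0.01 and 6 with a 2-fold minimum. For the difference of changes 10 became 3 with a 2-fold minimum, 5 as genes and 4 with only measured probe sets tested. Fewer probe sets tested or a stricter rule lowers these counts by construction, apart from the fit with only the groups compared, where the cause was not tested. With 1 array left out, the counts ranged from 41 to 48, 48 to 59, 18 to 23, 11 to 20 and 10 to 18 in the same order of comparisons, the last reaching 18 without CAC control 1 and the control count reaching 11 without sporadic control 2. Replicate numbers did not pair the samples (correlations of same-numbered deviations from -0.083 to 0.054), and with the replicate number as a block the counts were 47, 54, 18, 12 and 7.

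Of 575 alternatives run on 37 gene results, 523 kept the direction and the side of the threshold, 52 lost the call and 0 reversed. The lost calls belong to 12 results, 9 of them lost without 1 array, and for them the cause was not tested. Besides those given with their genes, the Cdh13 tumor difference was lost with quantile normalization (-1.12, adjusted p = 0.0554), with only the groups compared (adjusted p = 0.0885), with the replicate block (-1.11, adjusted p = 0.139) and with the mean of its probe sets (-0.60, adjusted p = 0.145). The authors' deposited table gave log2 fold changes that differed from those computed here by a median of 0.0208 in CAC and 0.0229 in sporadic tumors. The largest differences were 0.252 and 0.358. The authors' corrected p, from a test the sources do not name, was under 0.05 for 57 and 90 of the 113 member probe sets. With limma 49 and 60 passed. Groups of 2 to 5 arrays, with controls pooled, limit what small changes can be seen.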
